A study of Mus musculus with 10 samples.

Results

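A set of 10 genes linked to human Alzheimer disease risk that act in endocytosis, endosomal sorting, lipid transport and cell adhesion (Bin1, Picalm, Cd2ap, Abi3, Sorl1, Abca7, Rin3, Ptk2b, Cass4 and Clu) was followed through hippocampal microglia of 3 groups of mice. They were taken by gene symbol from a deposited table of 19782 genes, where all 10 were present, and all 10 were among the 12505 genes that passed the filter on low counts. Microglia, the resident macrophages of the brain, had been sorted as CD45low CD11b+ cells, and their RNA was sequenced after Smart-Seq amplification. The 5xFAD repopulated group held 3 libraries from 5xFAD mice that received PLX3397, an inhibitor of the CSF1 receptor that removes microglia, at 290 mg/kg of chow for 1 month from 4 months of age, and then normal diet for 1 month while microglia returned. The 5xFAD control group held 3 libraries from 5xFAD mice on normal diet, and the wild-type group held 4 libraries from WT mice on normal diet. The ages of these last groups, the sex, the strain background and any pooling of animals are not stated in the labels. The 5xFAD line expresses mutant human APP, among its transgenes, in neurons from the Thy1 promoter, so the microglia themselves are not the intended site of transgene expression. No repopulated wild-type group was analysed here, so the drug and the return of cells were read in 5xFAD mice only. The labels do not say whether the libraries of a group came from separate animals, so the p-values given here stand for variation among libraries, and part or all of it may be technical.

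Receptors and their cargo leave the cell surface in clathrin-coated pits, which adaptor proteins assemble, BAR-domain proteins bend and actin drives inwards. The vesicles fuse into early endosomes under the small GTPase Rab5, and from there sorting receptors and the retromer return cargo to the Golgi or the surface, while the remainder goes on to lysosomes. Adhesion kinases and scaffolds of the Cas family link integrins to the same actin network, and in microglia these routes serve uptake of debris and movement of processes. Variants in or near the human counterparts of these genes are associated with late-onset Alzheimer disease. The mouse transcripts were measured here, and no variant was.

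By role the genes fell into 4 sets. In the coated pit and on its actin, Picalm (gene ID 233489, chr7:90130192-90209447 of GRCm38.p6) encodes a clathrin assembly adaptor. Bin1 (30948) encodes a BAR-domain protein that bends membrane. Cd2ap (12488, chr17:42748887-42876707) encodes a scaffold between endocytic and actin proteins, and Abi3 (66610, chr11:95830072-95842476) a member of the Abl interactor family of WAVE complex subunits. On the endosome, Rin3 (217835, chr12:102282840-102390854) encodes an exchange factor for Rab5 and Sorl1 (20660, chr9:41964709-42124297) a sorting receptor of the VPS10P family that binds APP. At the adhesion site, Ptk2b (19229, chr14:66153257-66281100) encodes the kinase Pyk2 and Cass4 (320664, chr2:172393644-172433752) a Cas scaffold. In lipid handling, Abca7 (27403, chr10:79996453-80015572) encodes a lipid transporter of the ABC family and Clu (12759, chr14:65968483-65981548) the secreted chaperone clusterin, also known as apolipoprotein J. Clu and Ptk2b are neighbours, 171708 bases apart on chromosome 14.

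RefSeq promoter windows on GRCm38.p6, of 250 bases before and 50 after a start site, were given for 6 of the 10 genes, and 3 are printed because they belong to genes that differed between 5xFAD control and wild-type microglia. Capitals mark matches, on either strand, to GGGCGG (GC box), CACGTG (E-box), CCAAT or GGAAGT (the core of sites for ETS factors such as PU.1).
Picalm, chr7:90129963-90130262, plus strand: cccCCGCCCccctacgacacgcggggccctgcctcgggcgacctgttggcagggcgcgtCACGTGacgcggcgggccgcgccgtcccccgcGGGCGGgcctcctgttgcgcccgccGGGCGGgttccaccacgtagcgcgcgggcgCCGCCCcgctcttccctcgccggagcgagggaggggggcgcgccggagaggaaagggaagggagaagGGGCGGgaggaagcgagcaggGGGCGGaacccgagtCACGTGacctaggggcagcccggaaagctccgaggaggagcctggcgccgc
Abca7, chr10:79996244-79996543, plus strand: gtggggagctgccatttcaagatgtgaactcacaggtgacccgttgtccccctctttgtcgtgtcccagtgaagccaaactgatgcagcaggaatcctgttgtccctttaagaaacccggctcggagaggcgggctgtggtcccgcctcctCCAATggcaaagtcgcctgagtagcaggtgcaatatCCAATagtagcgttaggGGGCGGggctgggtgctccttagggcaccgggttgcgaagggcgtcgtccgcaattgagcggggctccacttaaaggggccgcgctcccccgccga
Cass4, chr2:172393394-172393693, plus strand: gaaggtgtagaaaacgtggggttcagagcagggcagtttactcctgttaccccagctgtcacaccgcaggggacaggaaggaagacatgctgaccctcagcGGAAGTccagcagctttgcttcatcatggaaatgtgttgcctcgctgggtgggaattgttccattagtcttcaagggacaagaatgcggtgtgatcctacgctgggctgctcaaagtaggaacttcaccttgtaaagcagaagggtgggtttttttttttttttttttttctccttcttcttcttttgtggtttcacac
The Picalm window was 78.0% G or C with 44 CpG, the Abca7 window 60.7% with 19, and the Cass4 window 48.0% with 6, beside medians of 52.7% and 7 over 32851 windows. Picalm held 6 GC boxes, which 35.7% of all windows hold at least once, and an E-box at both -191 and -1, counting bases back from the start site, which 7.15% hold. Each of these E-boxes is flanked by GT before and AC after, the form known as the CLEAR element of lysosomal genes. That form occurred in 107 of the 32851 windows, and Picalm's was the 1 window that held it in 2 places, a feature that was looked up after the sequence had been read. Abca7 held CCAAT at -99 and -63 (37.4% of windows hold one) and 1 GC box at -46, and Cass4 held 1 ETS core at -149 (23.8%) and no GC box. None of the 3 windows held TATAAA, which 13.6% of windows hold, or GAGGAAGT, which 3.2% hold. A match describes the letters and was not measured as binding.

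The cells carried their label. The 14 microglial markers summed to between 49933.5 and 64699.2 CPM (counts scaled to a common library size with TMM factors) in repopulated, 58089 and 64465.3 in control and 55976.5 and 66337.8 in wild-type libraries. In control against wild-type microglia 5 of these 14 markers were called lower and 0 higher by edgeR, beside 8.04% lower and 10.1% higher of all tested genes. Library totals lay between 18501136 and 23286814 estimated counts. The following facts of the libraries touch the results below. Wild-type 3 stood apart on the second principal component and also on the first (79.87, against 28.57 to 41.58 in wild-type 1, 2 and 4). It had the highest sums of neuron (73.14 CPM, against 12.54 to 14.57 in wild-type 1, 2 and 4) and astrocyte markers (573, against 223.8 to 315.7). The same held for erythrocyte and platelet (291.8, against 19.99 to 46.21) and oligodendrocyte markers (148.9, against 63.68 to 91.84). Its sum of endothelial and mural markers was the lowest (15.36). Y-linked transcripts summed to 5.12 to 16.01 CPM of unscaled totals in control 1, control 3 and wild-type 2 and to 341.87 to 483.77 in the other 7 libraries, so control 2 differed from both other controls in this respect. Control 2 also had more neutrophil and monocyte marker RNA (342.5 CPM, against 36.11 and 38.94 in controls 1 and 3). Its sum of border macrophage and dendritic markers was 168.8 CPM, against 112.8 and 80.05 in controls 1 and 3. Fold changes moved with the GC content of transcripts across 12136 genes (Spearman's rho -0.263 in control against wild type, 0.435 in repopulated against control and 0.135 in repopulated against wild type, a description across genes that share libraries).

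Length-scaled levels put the 10 genes into a high and a low set. Bin1 averaged 281.6 ± 48.6 TPM (a length-scaled unit, ± SD) in repopulated (n = 3), 190.5 ± 11.9 in control (n = 3) and 374.2 ± 99.3 in wild-type microglia (n = 4). Picalm averaged 228.6 ± 11.2 TPM in repopulated, 314.2 ± 50.3 in control and 279.6 ± 18.9 in wild-type microglia. Abi3 averaged 135.1 ± 32.0 TPM in repopulated, 75.37 ± 11.1 in control and 174.8 ± 51.6 in wild-type microglia. These were the highest of the 10 in every group, and their order changed. In control microglia Picalm ranked 419 and Bin1 678 of 19782 genes by mean TPM, whereas in wild-type microglia Bin1 ranked 335 and Picalm 483. The ranges of Bin1 and Picalm overlapped in repopulated libraries (Bin1 232.8 to 330.1, Picalm 218.2 to 240.4 TPM), did not in control libraries (Bin1 179.0 to 202.8, Picalm 270.6 to 369.3 TPM) and did in wild-type libraries (Bin1 275.3 to 491.4, Picalm 251.3 to 289.9 TPM).

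Below them came Cd2ap, with mean levels of 30.23 ± 1.38 TPM in repopulated, 30.42 ± 2.02 in control and 36.14 ± 2.16 in wild-type microglia (SD, n = 3, 3 and 4, as for all TPM means). Ptk2b followed with 25.25 ± 4.63 TPM in repopulated, 16.72 ± 4.61 in control and 25.34 ± 8.18 in wild-type microglia. Rin3 averaged 15.96 ± 3.36 TPM in repopulated, 9.73 ± 2.14 in control and 17.57 ± 3.19 in wild-type microglia. The remaining genes were lower still. Cass4 averaged 8.333 ± 1.97 TPM in repopulated, 6.417 ± 3.89 in control and 15.84 ± 4.41 in wild-type microglia. Sorl1 averaged 7.767 ± 0.962 TPM in repopulated, 7.957 ± 0.374 in control and 8.492 ± 2.24 in wild-type microglia. Abca7 averaged 4.473 ± 1.16 TPM in repopulated, 2.443 ± 0.176 in control and 5.627 ± 1.94 in wild-type microglia. Clu, a gene known for its high level in astrocytes, averaged 4.03 ± 1.87 TPM in repopulated, 3.97 ± 1.13 in control and 10.26 ± 13.4 in wild-type microglia, where 1 library set the mean. In the order of the wild-type means, only Picalm and Abi3, and Abi3 and Cd2ap, were neighbours whose wild-type ranges did not overlap. In these bulk libraries fewer cells that express a gene and less RNA per cell cannot be told apart.

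**Figure D1:**
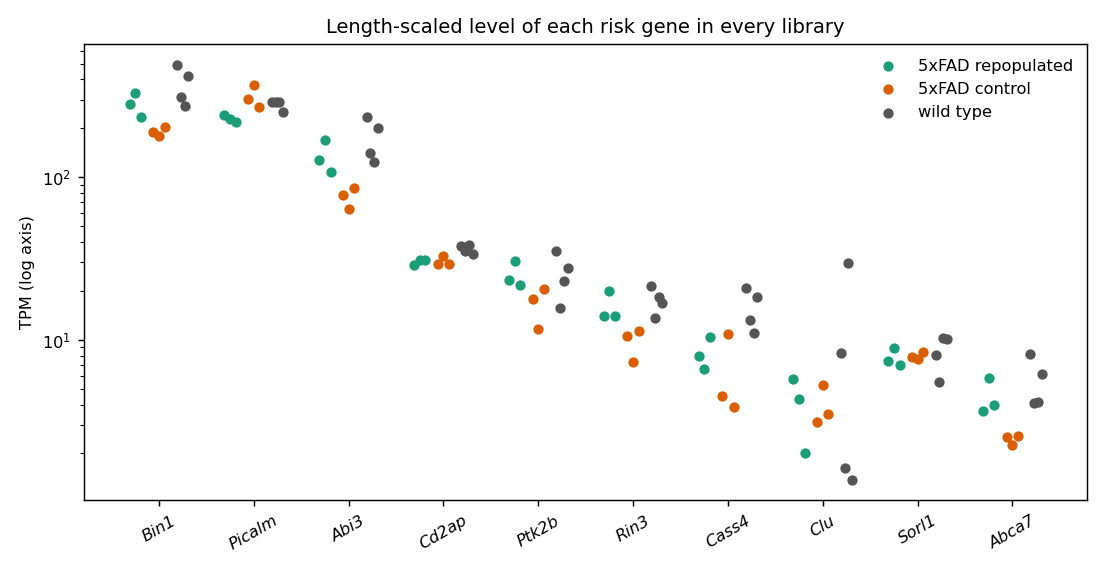
TPM of each gene (log axis) in every library, with 5xFAD repopulated, 5xFAD control and wild-type libraries from left to right within each gene and genes ordered by their wild-type mean. Bin1, Picalm and Abi3 form the high set, and wild-type 3 is the Clu point at 29.70 TPM.

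In the fit over all 10 libraries, 5xFAD control microglia had less Bin1, Abi3, Abca7 and Cass4 RNA and more Picalm RNA than wild-type microglia. These calls depended on libraries and settings. In the alternative runs given below Abca7 passed in 13 of 23, Cass4 in 10 of 23 and Abi3 in 9 of 24. This comparison sets 5xFAD against WT mice on normal diet, with Y-linked transcripts low in controls 1 and 3 and in wild-type 2. With edgeR (quasi-likelihood fit, Benjamini-Hochberg adjustment over all tested genes) 5 of the 10 genes passed an adjusted p of 0.05, 1 higher and 4 lower, whereas 18.1% of all tested genes were called (10.1% higher and 8.04% lower). The median log2 fold change was -0.58 over the 10 genes and -0.06 over all tested genes. Groups did not overlap for 4 of the 10 (Bin1, Picalm, Abca7 and Rin3), as was so for 26.7% of all tested genes.

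**Figure D2:**
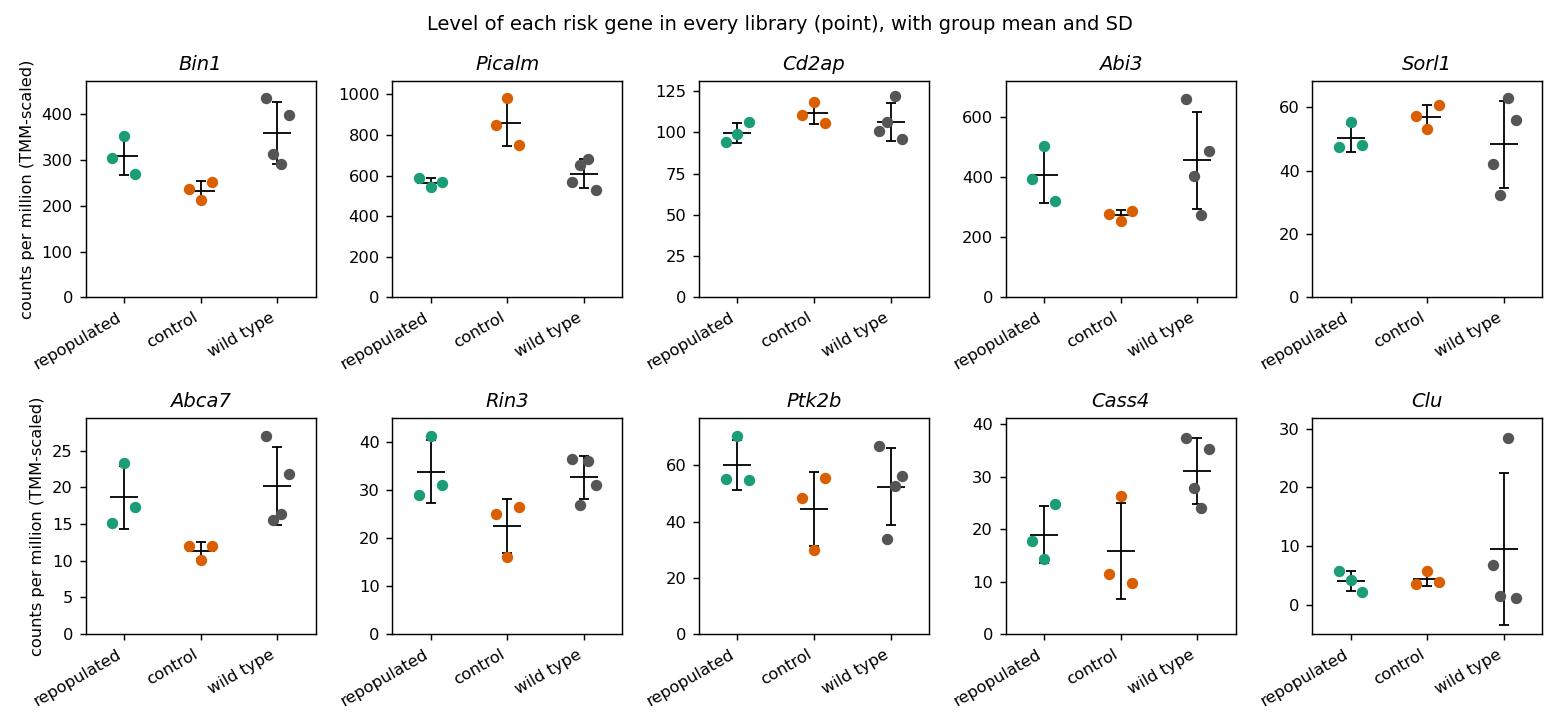
TMM-scaled CPM of the 10 genes, 1 panel per gene with its own axis, with points for libraries (5xFAD repopulated, 5xFAD control and wild type, from left to right) and a black bar for the group mean and SD. For Bin1, Picalm, Abca7 and Rin3 the control points lie wholly on one side of the wild-type points, and for Clu wild-type 3 lies far above the rest.

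Picalm, the clathrin adaptor, was the gene of the 10 that rose. It stood at 847.5, 982.8 and 751.6 CPM in control libraries 1 to 3, against 569.2, 654.3, 682.1 and 530.6 CPM in wild-type libraries 1 to 4. The lowest control lay above the highest wild-type library, and the log2 fold change was 0.50 ± 0.14 (SE, edgeR adjusted p = 0.0205, 1.41-fold higher). Bin1, the membrane-bending protein of the same process (chr18:32376618-32435740), went the other way. It stood at 237.2, 211.8 and 251.6 CPM in control libraries, against 435.2, 314.4, 291.8 and 398.0 CPM in wild-type libraries. Every control lay below every wild-type library, and the log2 fold change was -0.62 ± 0.16 (edgeR adjusted p = 0.0134, 1.54-fold lower). On the TPM scale the ratio of group means was 0.509 for Bin1 and 1.12 for Picalm, and on that scale the Picalm control libraries reached from 270.6 to 369.3 TPM and overlapped the wild-type range. The TPM scale shifted all genes: over 12472 genes the median log2 ratio of control to wild-type means was -0.39 on TPM and -0.06 on CPM, so directions on TPM are to be read against that shift.

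Abi3, the WAVE complex family member, stood at 276.3, 252.9 and 287.9 CPM in control libraries, against 657.6, 401.9, 274.5 and 485.0 CPM in wild-type libraries. The groups overlapped through wild-type 3, whose level lay within the controls', and the log2 fold change was -0.74 ± 0.23 (edgeR adjusted p = 0.0389, 1.67-fold lower). Abi3 begins across from Gngt2, a G protein gamma subunit gene on the opposite strand: the 2 genes overlap by 705 bases, 234 of them exonic in both. The estimated Abi3 count was not whole in 9 of 10 libraries and the Gngt2 count in 6, whereas the counts of the other 9 risk genes were whole in all 10, and the labels do not say that counting used strand. Gngt2 itself averaged 275.2 ± 19.4 CPM in control and 230.4 ± 38.1 CPM in wild-type microglia (log2 fold change 0.26, edgeR adjusted p = 0.212). With the counts of both genes summed, the log2 fold change was -0.32 (edgeR adjusted p = 0.166), so the call did not hold for the sum. The sum also takes in the unshared reads of Gngt2, which has 1877 exon bases and a fold change in the other direction. It therefore does not test the Abi3 call by itself. How the shared reads were divided is not given in the sources used here.

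Abca7, the lipid transporter, stood at 11.97, 10.08 and 12.07 CPM in control libraries, against 27.01, 15.58, 16.33 and 21.84 CPM in wild-type libraries. All controls lay below all wild-type libraries, and the log2 fold change was -0.83 ± 0.23 (edgeR adjusted p = 0.0214, 1.77-fold lower). The estimated counts behind it were low, at 200 to 256 per control library and 328 to 560 per wild-type library. Cass4, the Cas scaffold, stood at 11.43, 26.40 and 9.664 CPM in control libraries, against 37.38, 27.78, 24.01 and 35.23 CPM in wild-type libraries. Control 2 lay within the wild-type range while controls 1 and 3 lay well below it, and the log2 fold change was -0.97 ± 0.31 (edgeR adjusted p = 0.0407, 1.97-fold lower). Without control 2 the Cass4 log2 fold change was -1.56 (adjusted p = 0.00174), and without the libraries with low Y-linked transcripts, which leaves control 2 as the lone control, it was -0.28 (adjusted p = 0.663).

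The other 5 genes did not pass. Rin3, the Rab5 exchange factor, stood at 24.88, 16.07 and 26.35 CPM in control libraries, against 36.32, 26.74, 36.06 and 31.09 CPM in wild-type libraries. The groups did not overlap, by the narrow gap between control 3 and wild-type 2, and the log2 fold change of -0.54 ± 0.20 missed the threshold (edgeR adjusted p = 0.0758). Ptk2b, the adhesion kinase, had a log2 fold change of -0.23, with a 95% interval of -0.72 to 0.25, and overlapping groups. As with Rin3, its lowest control was control 2 (29.93 CPM, against 48.48 and 55.35 CPM in controls 1 and 3). With control 2 as the lone control Rin3 had a log2 fold change of -1.09 and Ptk2b of -0.96 (edgeR adjusted p = 0.0343 and 0.0358). These p-values, like that of Cass4 above, take the lone control to vary like the libraries of the other groups, so they describe control 2 more than the group.

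Cd2ap, the endocytic scaffold, had the smallest log2 fold change of the 10 in this comparison. It averaged 111.5 ± 6.39 CPM in control and 106.3 ± 11.4 CPM in wild-type microglia, and its log2 fold change of 0.07 had a 95% interval of -0.19 to 0.33. Sorl1, the sorting receptor, averaged 57.01 ± 3.79 CPM in control and 48.31 ± 13.8 CPM in wild-type microglia, with a log2 fold change of 0.24 and an interval of -0.17 to 0.65. For both the direction depended on the scale: the ratio of mean TPM was 0.842 for Cd2ap and 0.937 for Sorl1, and that of mean CPM 1.05 and 1.18. The wild-type Sorl1 values spread from 32.24 to 62.93 CPM and enclosed all controls.

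Clu, the secreted chaperone, stood at 3.547, 5.744 and 3.913 CPM in control libraries, against 6.801, 1.52, 28.48 and 1.168 CPM in wild-type libraries. Wild-type 3 was far above the rest, 2 other wild-type libraries were below all controls, and the log2 fold change of -1.11 ± 1.00 had an interval of -3.37 to 1.15. In wild-type 3 the astrocyte glutamate transporter Slc1a2 stood at 42.18 CPM, against 3.055 to 5.841 CPM in wild-type 1, 2 and 4. The astrocyte filament gene Gfap stood at 7.046 CPM there, against 0 to 0.5224 CPM in wild-type 1, 2 and 4, and the water channel Aqp4 at 1.652 CPM, against 0.2696 to 0.6173 CPM. Of the 10 astrocyte markers 9 were higher in wild-type 3 than in every other wild-type library and 8 were higher there than in all 9 other libraries. Gfap reached 9.853 CPM in control 3, and Aldh1l1 was at 0. Without wild-type 3 the Clu log2 fold change was 0.48, and the part of other brain cells in the Clu level was not tested.

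**Figure D3:**
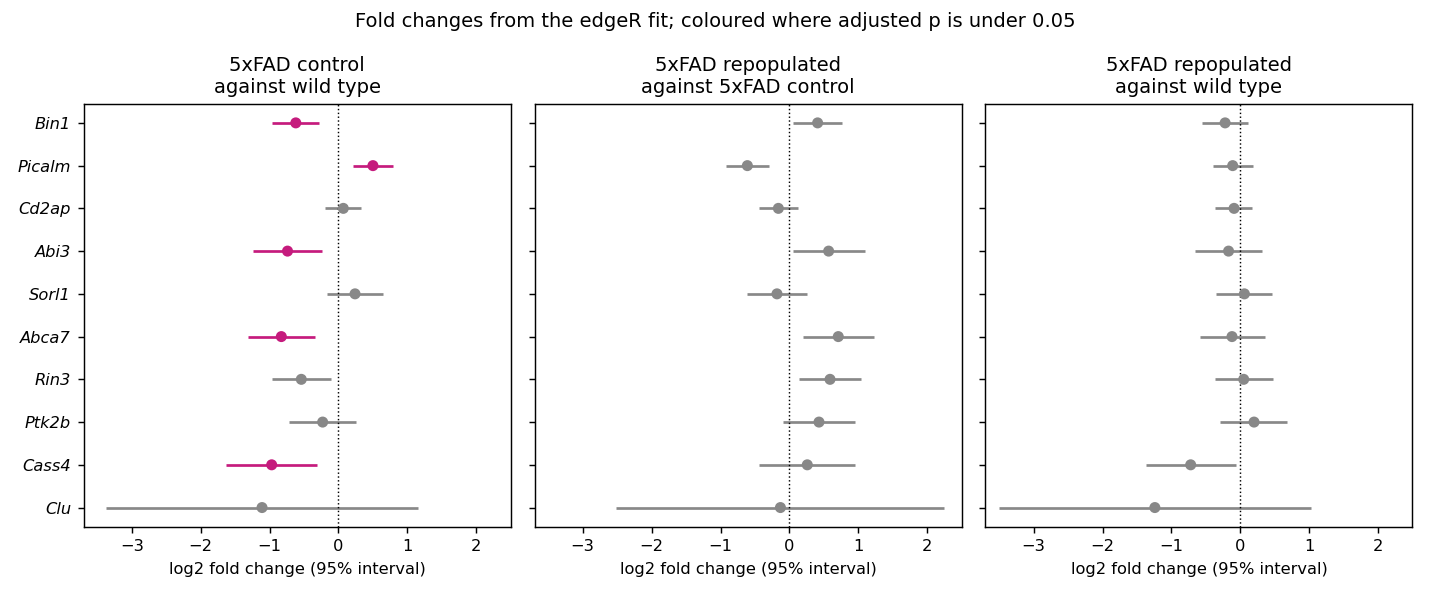
Log2 fold change of each gene with its 95% interval from the edgeR fit, in 3 panels for 5xFAD control against wild type, 5xFAD repopulated against 5xFAD control and 5xFAD repopulated against wild type. Coloured points passed an adjusted p of 0.05, which 5 genes did in the first panel and none did in the other panels.

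These calls rest on few libraries. The number of the 10 genes called was 0 without control 1, 1 (Cass4) without control 2, 2 (Bin1 and Picalm) without control 3 or without wild-type 1, and 1 (Bin1) without wild-type 4. It was 3 (Bin1, Picalm and Abca7) without repopulated 1, which enters through the shared estimate of the spread. No log2 fold change of a called gene changed sign in any alternative run. Of the 5, Bin1 passed in 19 of 23 alternatives, Picalm in 17 of 23, Abca7 in 13 of 23, Cass4 in 10 of 23 and Abi3 in 9 of 24. These counts include a prior count of 0.5, which left the adjusted p of each gene unchanged, so that pass adds no support.

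The GC content of the transcripts moved with the direction of the calls. Picalm, which was higher, has a transcript of 42.1% GC, while Abi3, Abca7, Bin1 and Cass4, which were lower, have 59.7%, 58.9%, 55.3% and 53.6%. Among genes within 1 percentage point of GC of Abi3, 15.2% were called lower and 5.70% higher, and near Picalm 3.64% were called lower and 13% higher. The median log2 fold change of such neighbours was -0.38 at the GC of Abi3, -0.36 at that of Abca7, -0.27 at that of Bin1, -0.19 at that of Cass4 and 0.10 at that of Picalm. After a correction of each library for GC content and transcript length, 2 of the 10 genes were called. Picalm had a log2 fold change of 0.45 (adjusted p = 0.0117) and Bin1 one of -0.41 (adjusted p = 0.0154), while Cass4 (-0.74), Abca7 (-0.44) and Abi3 (-0.35) had adjusted p of 0.155, 0.0657 and 0.119.

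**Figure D4:**
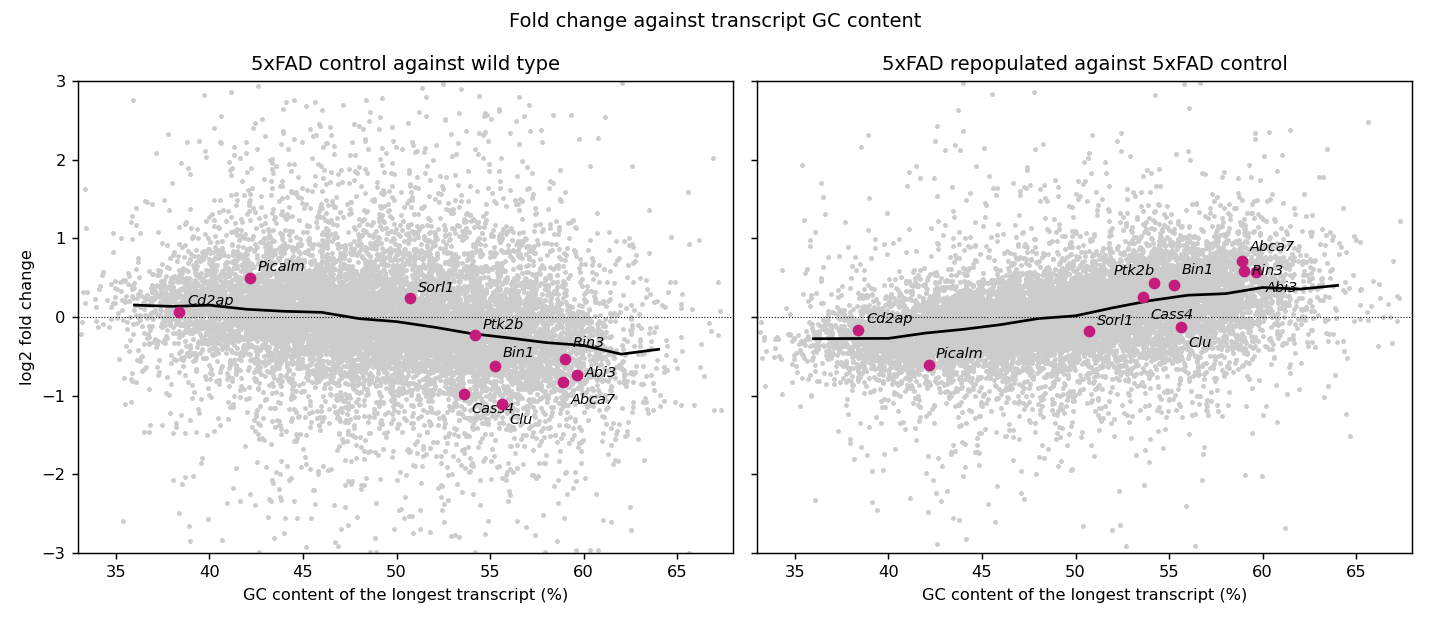
Log2 fold change of each gene against the GC content of its longest transcript, in 5xFAD control against wild type (left) and 5xFAD repopulated against 5xFAD control (right), with all tested genes in grey, the 10 risk genes in colour and the median of bins of GC as a black line. The line slopes down on the left (rho -0.263) and up on the right (rho 0.435), and Picalm lies above it on the left and below it on the right.

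In repopulated against control microglia of 5xFAD mice no gene of the 10 passed the adjusted threshold. All repopulated libraries lay below all controls for Picalm and above all controls for Bin1, Abi3, Abca7 and Rin3. The comparison sets 5xFAD microglia after depletion and return against those on normal diet. It is partly confounded with Y-linked transcripts, which were high in all repopulated libraries and in control 2 and low in controls 1 and 3. edgeR called 0 of the 10, and 0.568% of all tested genes, or 71 genes. That number ran from 0 to 328 when 1 library was left out, with 0 calls without repopulated 2. With a term for Y-linked status it was 1. At an unadjusted p under 0.05 there were 5 of the 10, beside 18.5% of all genes. The same 5 had groups that did not overlap, beside 30.7% of all genes. DESeq2 called 1 of the 10 (Picalm) and limma-voom called 0. The control libraries also serve in the comparison with wild type, so opposite signs in these comparisons share their source.

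Picalm stood at 586.4, 542.1 and 565.7 CPM in repopulated libraries 1 to 3, beside the 751.6 to 982.8 CPM of the controls. The repopulated values lay close together, with a coefficient of variation of 3.92%, against 13.5% in controls and 11.7% in wild-type libraries. The log2 fold change was -0.61 ± 0.15, with a 95% interval of -0.92 to -0.29 and an edgeR adjusted p of 0.0727. It passed with DESeq2 (adjusted p = 0.0016). With edgeR its adjusted p was 0.0323 with the compared groups alone, 0.0486 without control 3 and 0.0447 without wild-type 3. Without the libraries with low Y-linked transcripts it was 0.0494, with control 2 as the lone control, taken to vary like the other groups. Its adjusted p ran from 0.0016 to 0.346 over all alternatives.

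Bin1 stood at 305.3, 352.4 and 270.3 CPM in repopulated libraries, all above the 3 controls, with a log2 fold change of 0.41 and a 95% interval of 0.05 to 0.76 (edgeR adjusted p = 0.212). Abca7 stood at 15.15, 23.39 and 17.37 CPM in repopulated libraries, also all above the controls, with a log2 fold change of 0.71 and an interval of 0.20 to 1.23 (adjusted p = 0.148). Both genes had their highest value in repopulated 2. Abi3 stood at 391.3, 502.7 and 321.2 CPM in repopulated libraries, with a log2 fold change of 0.57 (interval 0.05 to 1.10, edgeR adjusted p = 0.23), and summed with Gngt2 it had one of 0.22 (adjusted p = 0.51). Rin3 stood at 29.00, 41.18 and 30.98 CPM in repopulated libraries, with a log2 fold change of 0.59 (interval 0.14 to 1.04, edgeR adjusted p = 0.165). Repopulated 2 was highest for these as well.

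For the remaining 5 the groups overlapped. Ptk2b averaged 60.21 ± 8.97 CPM in repopulated and 44.58 ± 13.1 CPM in control microglia (log2 fold change 0.43, interval -0.09 to 0.95). Cass4 stood at 17.67, 14.24 and 24.84 CPM in repopulated libraries, within the span of the controls, with a log2 fold change of 0.26 and an interval of -0.44 to 0.95. Cd2ap (-0.16), Sorl1 (-0.18) and Clu (-0.13) had log2 fold changes near 0. For Clu the ratio of means was 1.02 on TPM and 0.911 on CPM, where the median log2 ratio of all genes was 0.15 on TPM and 0 on CPM. The Clu interval reached from -2.52 to 2.25, so that a change of several fold in either direction lay within it. After the GC and length correction none of the 10 was called. Of the 5 genes whose groups did not overlap, Bin1 then had a log2 fold change of 0.13, Abi3 of 0.16, Abca7 of 0.31, Rin3 of 0.22 and Picalm of -0.45, with adjusted p of 0.634, 0.703, 0.412, 0.621 and 0.101. Ptk2b then had 0.20, Cass4 0.01 and Cd2ap 0.08. Sorl1 (-0.32) and Clu (-0.38) moved farther from 0 with the correction.

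Repopulated microglia overlapped wild-type microglia for all 10 genes. In this comparison edgeR called 0 of the 10, and 4.18% of all tested genes. At an unadjusted p under 0.05 there was 1 (Cass4), beside 15.1% of all genes. Groups did not overlap for 0 of the 10, beside 16.0% of all genes. DESeq2 and limma-voom each called 0, and the median log2 fold change was -0.11 for the 10 and -0.02 for all genes.

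Cass4, the gene with an unadjusted p under 0.05, averaged 18.91 ± 5.41 CPM in repopulated (n = 3) and 31.10 ± 6.27 CPM in wild-type microglia (n = 4), and the groups overlapped only through repopulated 3 and wild-type 3 (24.84 and 24.01 CPM). The log2 fold change was -0.72, with a 95% interval of -1.37 to -0.06 and an edgeR adjusted p of 0.271. For the other genes the fit gave log2 fold changes of -0.22 for Bin1, -0.11 for Picalm, -0.17 for Abi3, -0.12 for Abca7, 0.05 for Rin3, 0.20 for Ptk2b, -0.09 for Cd2ap and 0.06 for Sorl1. Against the same wild-type libraries, the 95% interval of Picalm was -0.40 to 0.18 for repopulated and 0.21 to 0.79 for control microglia. That of Bin1 was -0.55 to 0.11 for repopulated and -0.96 to -0.29 for control microglia, and the 2 overlap. Those of Abi3 (-0.66 to 0.32 for repopulated, -1.24 to -0.24 for control) and Abca7 (-0.59 to 0.36 for repopulated, -1.32 to -0.34 for control) overlap as well. Because these intervals share the wild-type libraries, their overlap or separation does not test repopulated against control microglia. The direct comparison, given above, called 0 of the 10 genes, Picalm included. For Sorl1, Rin3 and Ptk2b the ratio of mean TPM was below 1 (0.915, 0.908 and 0.996) and that of mean CPM above it (1.04, 1.04 and 1.15), with a median log2 ratio over all genes of -0.21 on TPM and -0.02 on CPM. Clu had a log2 fold change of -1.24, which without wild-type 3 was 0.36.

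The pathways around these genes showed calls in both directions between control and wild-type microglia, at a share near that of all genes. Of the 168 tested genes of the 6 lists together, 33 were called (19.6%, beside 18.1% of all tested genes). Of 41 tested genes of clathrin endocytosis 2 were higher and 6 lower, beside 10.1% and 8.04% of all tested genes, with a median log2 fold change of -0.23. The clathrin light chain Clta was higher, as Picalm was, at 326.1 ± 38.7 CPM in control and 214.6 ± 25.4 CPM in wild-type microglia (log2 fold change 0.60, edgeR adjusted p = 0.00483). The lipid phosphatase Synj2 was higher too (1.37, adjusted p = 0.00363). The adaptor Epn2 (-1.38, adjusted p = 0.000392) and the endophilin Sh3gl1 (-1.16, adjusted p = 0.00181), a BAR-domain protein like Bin1, were lower. Among the closest relatives of the 10 genes, 13 of 22 were tested and 1 was called: Bin2 averaged 247.5 ± 37.0 CPM in control and 494.7 ± 76.0 CPM in wild-type microglia (log2 fold change -1, edgeR adjusted p = 0.000416). Bin2 is the Bin1 relative known from blood cells, and the neuronal relative Amph was below the filter, with 53 counts in all 10 libraries together. The relatives Abi1 (0.02), Sort1 (-0.17), Abca1 (-0.19), Rin2 (-0.08) and Ptk2 (-0.06) did not pass.

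Adhesion kinases and Cas scaffolds held 37 tested genes, 6 higher and 7 lower, with a median of -0.24. The share called was 35.1%, beside 18.1% of all tested genes. The list was chosen with earlier results of these data known, so this share is a description only. Elmo1, an activator of Rac in engulfment, averaged 151.6 ± 26.2 CPM in control and 369.9 ± 49.8 CPM in wild-type microglia (log2 fold change -1.29, edgeR adjusted p = 4.33e-05). The integrin activator Fermt3 was lower (-0.79, adjusted p = 0.00249), whereas the Src family kinase Fyn (1.22, adjusted p = 0.00222) and the talin Tln2 (0.65, adjusted p = 0.00237) were higher. The other Cas scaffolds were scarce: Bcar1 and Efs were below the filter and Nedd9 averaged 1.92 CPM in control and 0.8467 CPM in wild-type microglia. Early endosome and Rab5 genes numbered 22 tested, 2 higher and 2 lower (18.2% called, beside the same 18.1%). Among those called were Rab5b itself (-1.07, edgeR adjusted p = 0.00764) and the Rab5 effector Eea1 (0.66, adjusted p = 0.00976). Retromer and sorting genes numbered 27, 2 higher and 2 lower (14.8% called, below the share of all genes). Among those called were the retromer subunit Vps29 (0.63, edgeR adjusted p = 0.0134) and the sorting nexin Snx27 (-0.61, adjusted p = 0.00823), which links cargo to retromer. Of 28 WAVE and Arp2/3 genes 2 were higher and 1 lower (10.7% called, also below the share of all genes). The higher ones were Actr2 (0.77, edgeR adjusted p = 0.0196) and Actr3 (0.36, adjusted p = 0.049), the Arp2 and Arp3 subunits.

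**Figure D5:**
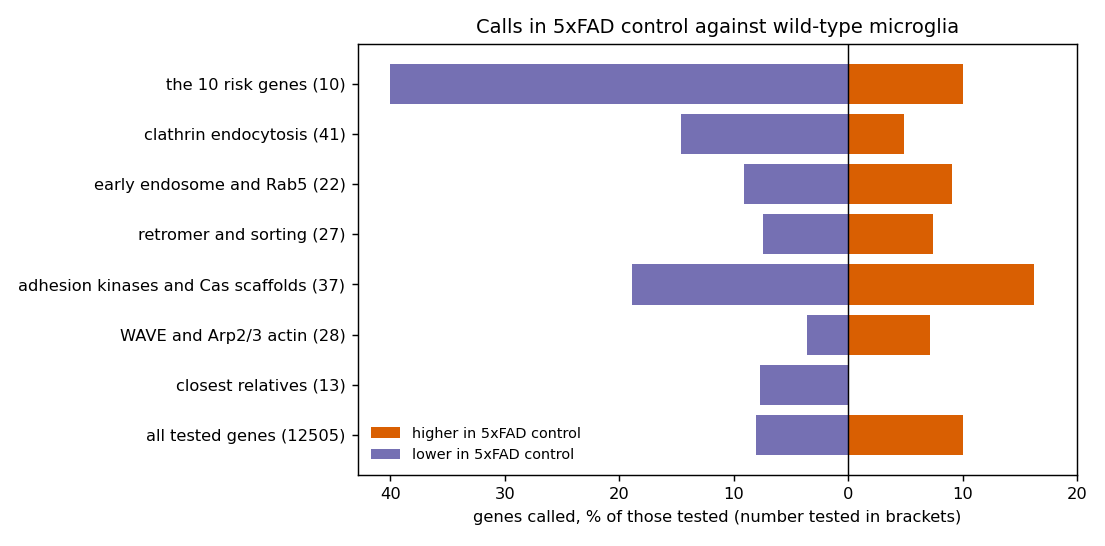
Share of tested genes called lower (left of 0) and higher (right of 0) in 5xFAD control than in wild-type microglia, for the 10 risk genes, the 6 lists around them and all 12505 tested genes. The 10 risk genes show 4 lower and 1 higher, and the adhesion list shows 7 lower and 6 higher of 37.

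In repopulated against control microglia 2 of the 168 tested genes of these 6 lists were called (1.19%, beside 0.568% of all tested genes). Sh3gl1 averaged 30.48 ± 6.02 CPM in repopulated and 14.24 ± 4.33 CPM in control microglia (log2 fold change 1.10, edgeR adjusted p = 0.0468). Elmo1 averaged 287.9 ± 21.3 CPM in repopulated and 151.6 ± 26.2 CPM in control microglia (log2 fold change 0.93, edgeR adjusted p = 0.0198). Without repopulated 2 neither was called. Bin2 did not pass, at 0.65 (adjusted p = 0.0744), with groups that did not overlap. Against wild type, repopulated microglia had more Synj2 (1.38, adjusted p = 0.00913), the Golgi sorting adaptor Gga2 (0.84, adjusted p = 0.0153), Fyn (1.35, adjusted p = 0.00256) and Tln2 (0.71, adjusted p = 0.0029), which were the 4 called genes of the 168 (2.38%, beside 4.18% of all tested genes). All 12 plaque-associated microglial genes were called higher than wild type in repopulated and in control microglia. Of all 12505 tested genes, 425 were called higher than wild type in repopulated and 1260 in control microglia. Summed levels of the 12 were 14976.2 to 16935.5 CPM in repopulated, 14933.4 to 27762.1 in control and 2273.1 to 3201.8 in wild-type libraries. Control 2 had the lowest of the control sums.

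The genes whose pattern over the 10 libraries lay nearest to each called risk gene were found by the root mean square difference of centred log2 CPM, a measure with no test. For Bin1 they were Trim11 (0.068), Pisd (0.07) and Nisch (0.073), beside a median of 0.451 over all tested genes. Near Picalm lay Kdsr (0.091) and Birc6 (0.094), beside a median of 0.465. For Abi3 they were Mapk8ip3 (0.086), Mvb12b (0.092) and Fam193a (0.1), and for Abca7 Sh3tc1 (0.095), Fscn1 (0.122) and Lime1 (0.124). Cass4 had no near neighbour of that kind: its nearest genes were Il7r (0.217), Klf7 (0.246) and Tspan18 (0.285), beside a median of 0.712. Among the 10 themselves Bin1 and Abca7 were nearest to each other (0.17), and Abi3 was nearest to Bin1 (0.177). Picalm's nearest was Cd2ap (0.214) and that of Cass4 was Bin1 (0.541), farther than for the others. Many genes outside the 10 lay nearer in each case. Among all tested genes Abca7 ranked 276 in nearness to Bin1, and Bin1 ranked 42 for Abca7 and 70 for Abi3. Cd2ap ranked 933 for Picalm, and Bin1 ranked 1063 for Cass4.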

How the data were processed

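RNA of sorted hippocampal microglia was read from 3 repopulated, 3 control and 4 wild-type libraries. The authors deposited estimated counts (expected counts) per gene, which per the file headers were not normalised and of which 20.1% of nonzero values were not whole (tolerance 0.001). Both TPM and FPKM, as deposited, were scaled by the authors for gene length and sequencing depth per the file headers. TPM served to compare levels between genes, and FPKM was not used. HISAT, Bowtie2 and GRCm38.p6 are named in the submitters' processing notes; the quantifier is not given in the sources used here. Rounded counts entered edgeR 4.0.16 under R 4.3.3 (filterByExpr, TMM, robust quasi-likelihood fit of the 3 groups over all 10 libraries, Benjamini-Hochberg over 12505 genes, threshold 0.05, prior count 0.125). Standard errors were obtained by dividing the size of each log2 fold change by the root of its F. DESeq2 1.42.0 and limma 3.58.1 (voom), other scalings and filters, libraries left out, a replicate block and a Y-linked term were alternatives. GC and length correction, alone or with the block, and the sum of Abi3 and Gngt2 were added after seeing the data. GC content is that of the longest GENCODE transcript. RefSeq matched 19725 of 19782 genes by gene ID. Every pair of libraries within a group differed by more than sampling noise. Totals of 18501136 to 23286814 counts put the error of a gene at the spread between libraries more than at counting; for Clu, with 26 to 586 counts, both matter. Named genes are the 10 risk genes, up to 4 called genes of each list by smallest p, and the 3 genes nearest to each called risk gene, of which 1 is not reported here. Relatives that did not pass, Gngt2, and single markers were named after their values were seen. The genes and lists were chosen with earlier results of these data known.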

Additional observations from a re-analysis of the deposited data

How the results depend on the processing

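In control against wild type the 5 risk genes called became 4 with limma-voom, 3 with no filter, 2 with the compared groups only, 2 with a term for Y-linked status, 3 without the low Y-linked libraries (Picalm higher, Rin3 and Ptk2b lower, with 1 control left), 2 with the GC and length correction and 0 at an absolute log2 fold change over 1. Leaving out 1 library gave 0 to 5. All genes called numbered 2265, and 1202 without the low Y-linked libraries, 775 past a log2 fold change of 1, and 1315 to 2910 leaving out 1 library. No pairing by replicate number was seen: between groups, same-numbered libraries had correlations of -0.105 to 0.071 and the others -0.109 to 0.129. A weak effect shared by a number could be missed in this way. With the replicate block 0 risk genes and 1464 genes were called in that comparison, with the GC correction and block 1 risk gene, and in repopulated against control 25 genes and, with the GC correction and block, 32.

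In repopulated against control 1 risk gene (Picalm) was called by DESeq2, with the compared groups only and without the low Y-linked libraries (1 control left), and 0 to 1 leaving out 1 library. The 71 genes called became 698 with DESeq2, 125 with limma-voom, 166 with no filter, 125 with the filter of 5 CPM in 3 libraries, 630 with the compared groups only, 1 with the Y-linked term, 388 without the low Y-linked libraries, 35 past a log2 fold change of 1, and 0 to 328 leaving out 1 library. In repopulated against wild type the 523 genes became 289 without the low Y-linked libraries, 281 past a log2 fold change of 1, and 284 to 688 leaving out 1 library.

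No called log2 fold change changed sign. Uncalled ones did, all near 0 or with wide intervals. In control against wild type Clu was 0.03 with limma-voom and 0.48 without wild-type 3, Sorl1 0.00 without the low Y-linked libraries, and Cd2ap -0.04 with the GC and length correction and -0.06 with the block added. In repopulated against control Clu was 0.17 without repopulated 3 and 0.10 without control 2, Cass4 0.00 without control 3, -0.11 with the Y-linked term and -0.48 without the low Y-linked libraries, and Cd2ap 0.08 with the GC correction, with or without the block. In repopulated against wild type Abca7 was 0.02 without repopulated 1 and 0.07 without wild-type 1, and Abi3 0.08 without wild-type 1. Sorl1 was -0.02 without repopulated 2, -0.09 without wild-type 2, 0.00 with the Y-linked term and -0.08 without the low Y-linked libraries. Rin3 was -0.12 without repopulated 2, -0.03 without wild-type 2, -0.02 without the low Y-linked libraries, -0.02 with the GC correction and -0.07 with the block added. Clu was 0.36 without wild-type 3, Picalm 0.00 with the GC correction, and Cd2ap 0.04 with it and 0.02 with the block. Over all single libraries left out, the values whose sign turned ran as far the other way as -1.48 for Clu in control against wild type, as 0.84 for Cass4 and -0.46 for Clu in repopulated against control, and as -0.35 for Abi3, 0.22 for Sorl1, -0.31 for Abca7, 0.15 for Rin3 and -1.61 for Clu in repopulated against wild type. The cause of these changes was not tested. Of the 693 alternative values for single genes, 610 kept their direction and their side of the threshold, 48 lost and 7 gained a call. Most of the 693 belong to results that were not called and could not lose a call. All 48 losses fell on the 5 calls in control against wild type, which passed in between 9 of 24 (Abi3) and 19 of 23 (Bin1) alternatives. Precision is limited by 3 or 4 libraries a group, with a biological coefficient of variation of 27.3%.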
